A study of Oryza sativa with 9 samples.

Results

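The genes described here encode the photosystems and the photosynthetic electron transport chain of rice. They were chosen as the entries of the deposited expression table that carry the KEGG pathway of photosynthesis and not that of antenna proteins, if their FPKM averaged 0.5 or more across the 9 libraries. FPKM counts fragments relative to the exon length of a gene and to all mapped fragments, so levels of different genes are compared here per length. Of 90 entries with the annotation, 54 reached that mean, among 22946 of 38652 entries in the whole table. At the edge of the rule, a PetD entry (LOC_Os08g15292, 0.443 FPKM) and an AtpB entry (LOC_Os01g25065, 0.499 FPKM) fell outside, and a PsaA entry (LOC_Os10g21250, 0.529 FPKM) and a PsbE entry (LOC_Os08g15322, 0.611 FPKM) fell inside.

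The libraries came from leaves of IR64, an indica variety that does not tolerate submergence and carries no Sub1A locus. Seedlings 20 days old were sprayed with 25 mL of gibberellin (GA) at 100 mg/L (GAT), of paclobutrazol, an inhibitor of GA biosynthesis, at 200 mg/L (PBT), or of solvent alone (control). All 3 groups were put under 100 cm of water 2 days later, and leaves were taken after 4 days of submergence, so no group shows unsubmerged leaves. Each group has 3 libraries, described by the study as biological triplicates, and the labels do not say whether they came from separate pots. The labels name 0.1% ethanol as the solvent of the controls and the study's methods name methanol, so the solvent of the controls is uncertain.

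Photosystem II (PSII) takes electrons from water at its manganese cluster and passes them through the cytochrome b6f complex and plastocyanin to photosystem I (PSI), which reduces ferredoxin, and ferredoxin-NADP reductase (FNR) makes NADPH. The proton gradient built on the way drives the chloroplast ATP synthase. The reaction centre cores of both photosystems are encoded in the plastid genome, while most of the small, peripheral and lumenal subunits are encoded in the nucleus and are among the most abundant messages of a green leaf. PSII is repaired continuously in the light, and submerged leaves are known to lose chlorophyll.

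Of the 54 genes, 20 carry names of subunits that the plastid genome encodes, and 34 do not. All 36 entries below the mean also carry plastid-encoded names. The 20 are loci of the nuclear chromosomes, their reads cannot be told apart here from those of the plastid genes of the same name, and the libraries were poly(A)-selected. Their values are therefore uncertain.

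The number of entries listed at 0 was between 14322 and 17529 in the 9 libraries. FPKM carries no count of fragments, so the depth behind each gene's value is unknown, and the precision rests on the spread of 3 libraries. Of the 54 genes, 20 were listed at 0 in at least 1 library, and 4 had a single 0 beside values over 10 FPKM in its group, which can be a failed estimate.

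Of the 54 genes, 23 had means of at least 50 FPKM, all of them among the 34 without plastid-encoded names. Together the 54 genes made up 2.45%, 2.84% and 2.54% of the summed FPKM in the GAT libraries, 3.89%, 3.39% and 3.75% in the PBT libraries, and 3.81%, 3.99% and 3.82% in the control libraries. The share was lower in every GAT library than in every PBT and every control library, while the PBT and control libraries overlapped. The sums weigh high genes most: LOC_Os07g05360 (PsbR) alone had a mean of 1704 FPKM in PBT and 797 FPKM in control. By gene, the PBT/Control log2 fold change was negative for 31 of the 54 and positive for 22. Over all tested entries it was negative for 12121 of 22946 and positive for 10526, so the count for the 54 is near that share. The most common order of the group means was GAT lowest, PBT intermediate and control highest, with ties of GAT and PBT counted in it. It held for 22 of the 54 genes (40.7%) and for 20 of the 34 without plastid-encoded names (58.8%). The share over all tested entries, with ties counted alike, was 18.4%. Tied genes were PsaG (LOC_Os09g30340), in both counts, and a PetD entry (LOC_Os10g21326), in the first. Each was listed at 0 in all GAT and PBT libraries. For the 23 genes with means of at least 50 FPKM, a set taken after their values were seen, the same order held for 16. PsaG is again among them by its tie. In leaf RNA, fewer cells of a type and less RNA per cell cannot be told apart.

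**Figure D1:**
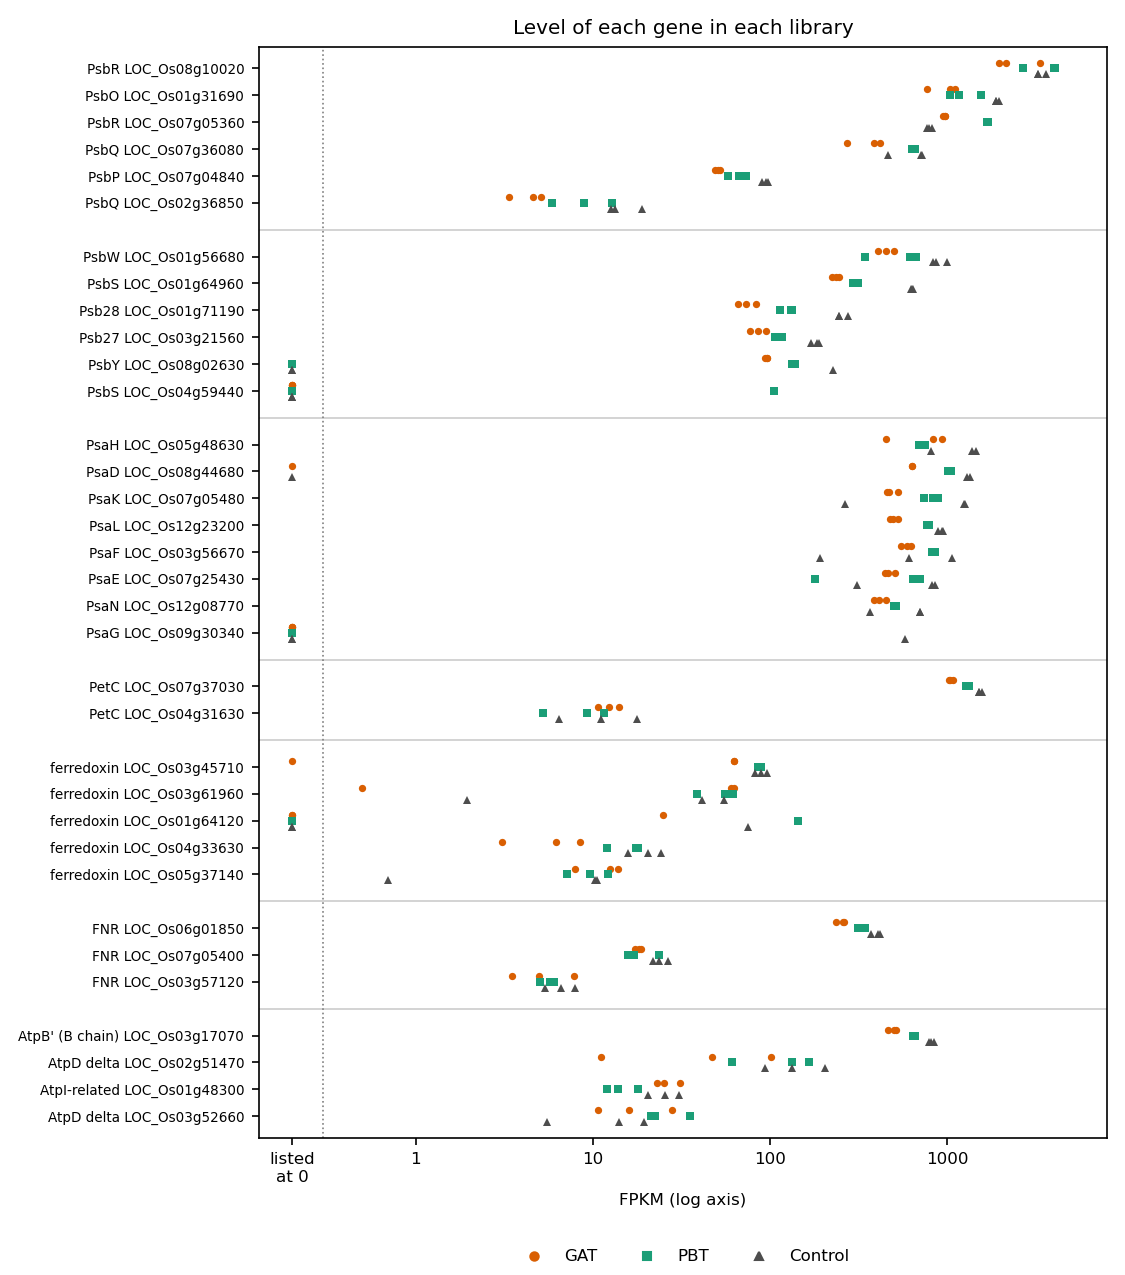
Level of each of the 34 genes without plastid-encoded names in each library, in FPKM on a log axis, with values listed at 0 drawn to the left of the dotted line. Each point is 1 library (GAT circles, PBT squares, control triangles), the genes are grouped from the water-splitting complex at the top to the ATP synthase at the bottom, and the GAT points lie left of the control points for most PSII genes.

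Entries were called higher or lower where the adjusted p (limma on log2(FPKM + 1), Benjamini-Hochberg over all 22946 tested entries) was under 0.05, and a called entry that changed by 1 or more on the log2 scale was counted as a DEG. In GAT/Control, 13 of the 54 genes were lower and 1 was higher, against 5.17% lower and 6.82% higher of all tested entries. In PBT/Control, 6 were lower and 1 was higher, against 2.47% and 3.9% of all entries. In PBT/GAT, 9 were higher and 1 was lower, against 4.65% and 4.72% of all entries. GAT/Control and PBT/Control share the control libraries, and PBT/GAT shares its libraries with both, so the 3 comparisons are not independent. Over the 54 genes, GAT/Control had a median log2 fold change of −0.42 (0.03 over all tested entries), PBT/Control of −0.20 (−0.04 over all) and PBT/GAT of 0.37 (−0.07 over all). These medians kept their sign in all settings tried, and some moved them by over 1.5 times. GAT/Control was −0.18 without control replicate 3, −0.21 under quantile normalization and −0.26 with entries of the same name summed. It moved the other way, to −0.64, without the genes with plastid-encoded names. PBT/Control was −0.13 without PBT replicate 1, −0.13 without control replicate 3 and −0.10 under quantile normalization, which also gave 0.24 for PBT/GAT. In all, 15 genes were called in at least 1 comparison, and 39 in none. The share of all tested entries called in at least 1 comparison was not counted. In GAT/Control, 5 genes were lower DEGs (PsbS, Psb28, Psb27, a PsbQ entry and a ferredoxin) and 0 were higher, against 3.72% and 4.71% of all entries. In PBT/Control, PsbR was a higher DEG and PsbS and Psb28 were lower ones, against 2.87% and 1.47% of all entries. In PBT/GAT, the ferredoxin was a higher DEG and 0 genes were lower ones, against 3.48% and 2.82% of all entries.

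Libraries of the groups compared did not overlap for 15 lower and 3 higher genes in GAT/Control, against 12.8% and 16.8% of all entries. In PBT/Control this held for 14 lower and 2 higher genes (13.4% and 12.9% of all entries). For PBT/GAT it held for 17 higher and 4 lower genes (12.6% and 17.4%). All 15 called genes were among the 34 without plastid-encoded names, and none of the 15 was listed at 0 in any library. Of the 13 genes lower in GAT/Control, 9 stayed called in all 20 other settings, and 11 in every fit that left out 1 library. Of the 6 lower in PBT/Control, 3 stayed called in all settings, and leaving out PBT replicate 2, control replicate 2 or control replicate 3 left 3. Of the 9 higher in PBT/GAT, 1 stayed called in all settings, and leaving out PBT replicate 2 left 5.

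**Figure D2:**
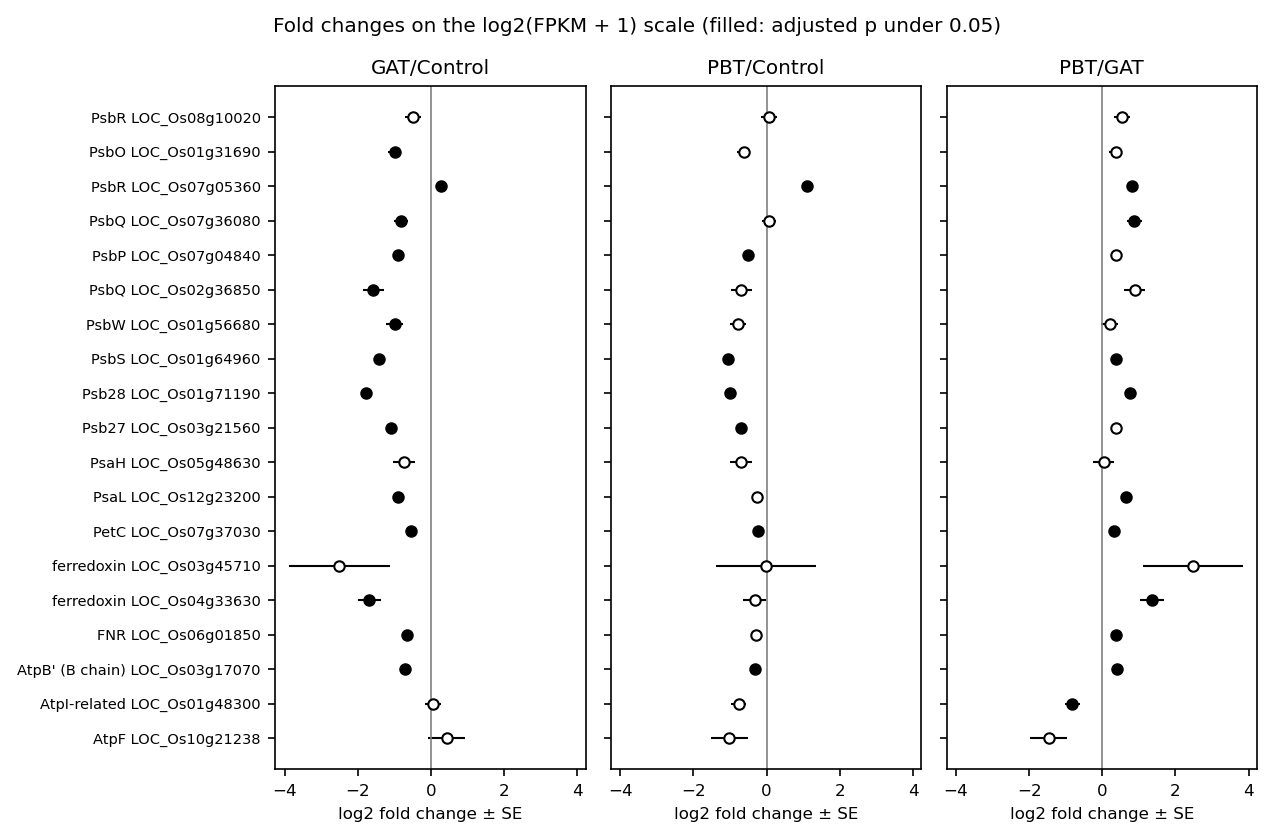
Log2 fold change ± SE in the 3 comparisons for the 15 called genes and 4 others with the highest mean of their group, on the log2(FPKM + 1) scale, with n = 3 libraries per group and filled points where the adjusted p was under 0.05. Most filled points are below 0 in GAT/Control and above 0 in PBT/GAT, and LOC_Os07g05360 (PsbR) lies above 0 in all 3 panels.

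Of the 6 genes for PSII proteins outside the water-splitting complex, 4 were lower in GAT/Control, 3 were lower in PBT/Control and 2 were higher in PBT/GAT. PsbS (LOC_Os01g64960), which senses the acidity of the thylakoid lumen and triggers thermal dissipation of excess light energy, had 246, 223 and 237 FPKM in GAT, 293, 309 and 315 FPKM in PBT, and 623, 641 and 630 FPKM in control libraries. The groups did not overlap in any pair. The means were 235 ± 12.1 FPKM in GAT, 305 ± 11.2 FPKM in PBT and 631 ± 8.82 FPKM in control (SD, n = 3 each). The log2 fold changes were −1.42 ± 0.08 (SE) (limma adjusted p = 1.6e-05) between GAT and control, −1.05 ± 0.08 (adjusted p = 0.00019) between PBT and control, and 0.37 ± 0.08 (adjusted p = 0.019) between PBT and GAT. The PBT/GAT call was lost in 3 of 9 fits that left out 1 library (without GAT replicate 2, PBT replicate 2 or PBT replicate 3), with adjusted p up to 0.0587.

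Psb28 (LOC_Os01g71190), known in cyanobacteria as an assembly factor of PSII, had the largest called decrease among the 54 genes. It had 73.4, 83.1 and 65.6 FPKM in GAT, 131, 134 and 115 FPKM in PBT, and 246, 274 and 246 FPKM in control libraries. GAT was lowest and control highest, with no overlap. The log2 fold changes were −1.78 ± 0.12 (limma adjusted p = 5.2e-05) between GAT and control, −1.01 ± 0.12 (adjusted p = 0.0021) between PBT and control, and 0.77 ± 0.12 (adjusted p = 0.0057) between PBT and GAT, and each call held in all 20 other settings. Psb27 (LOC_Os03g21560), a lumenal protein bound to PSII during assembly and repair, had 76.7, 94.4 and 85.5 FPKM in GAT, 107, 117 and 109 FPKM in PBT, and 184, 171 and 190 FPKM in control libraries. It fell in both treatments, by a log2 fold change of −1.08 ± 0.11 with GA (limma adjusted p = 0.00039) and by a log2 fold change of −0.71 ± 0.11 with PB (adjusted p = 0.0065), and PBT/GAT was 0.38 ± 0.11 (adjusted p = 0.07).

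PsbW (LOC_Os01g56680), a small membrane subunit that stabilises PSII supercomplexes in Arabidopsis, had the highest mean of this group. It had 453, 405 and 504 FPKM in GAT, 667, 615 and 345 FPKM in PBT, and 831, 1000 and 866 FPKM in control libraries. PBT replicate 3 lay below all GAT libraries and the other PBT libraries above them. The decrease was called in GAT/Control (−0.99 ± 0.23, limma adjusted p = 0.026) and not in PBT/Control (−0.78 ± 0.23, adjusted p = 0.092), and the GAT/Control call was lost in all 6 fits that left out a GAT or control library (adjusted p up to 0.0985). PsbY (LOC_Os08g02630) and a second PsbS entry (LOC_Os04g59440), chosen after their values were seen, were not called. PsbY, a small PSII membrane protein, had 93.7, 96.3 and 96.2 FPKM in GAT, 0, 138 and 133 FPKM in PBT, and 0, 0 and 227 FPKM in control libraries. The second PsbS entry was listed at 0 in 8 libraries and at 106 FPKM in PBT replicate 1.

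**Figure D3:**
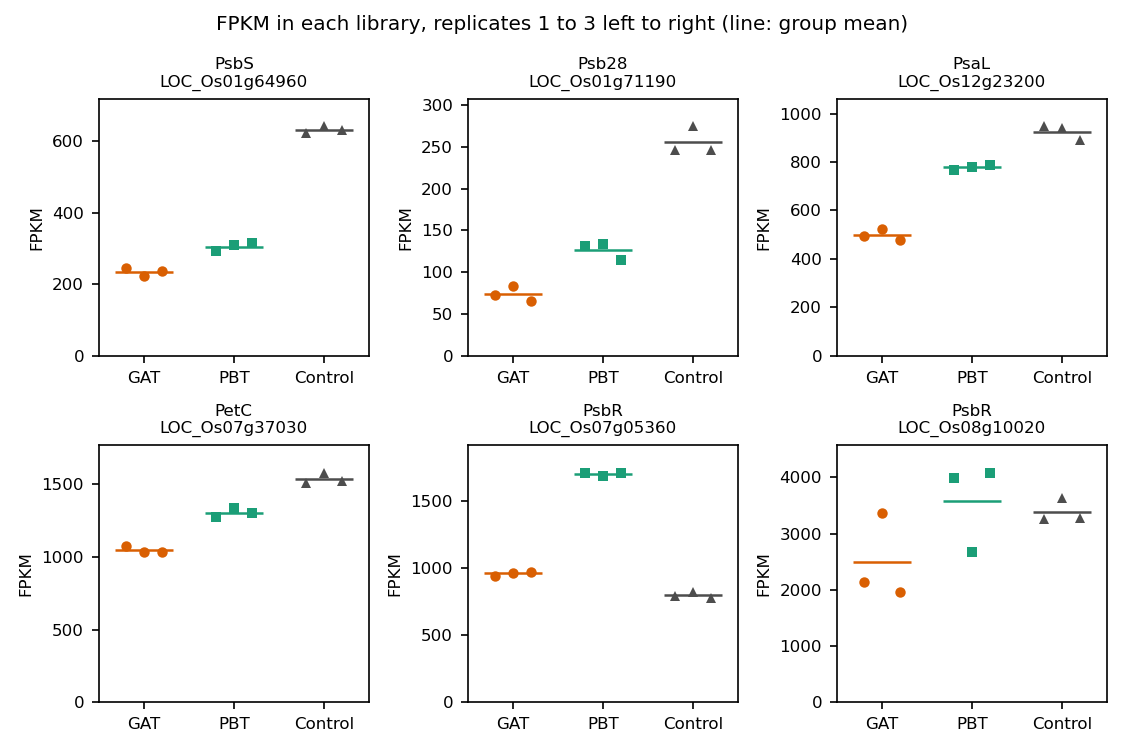
FPKM in each library for PsbS, Psb28, PsaL, PetC and both PsbR genes, with replicates 1 to 3 drawn left to right and a line at each group mean (n = 3), on axes that start at 0. PsbS, Psb28, PsaL and PetC are lowest in GAT and highest in control, while LOC_Os07g05360 (PsbR) is highest in PBT and LOC_Os08g10020 (PsbR) overlaps between groups.

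The proteins of the water-splitting complex shield and stabilise the manganese cluster on the lumenal side of PSII. Of 6 genes, 4 were lower and 1 was higher in GAT/Control, 1 was lower and 1 was higher in PBT/Control, and 2 were higher in PBT/GAT. PsbO (LOC_Os01g31690), which stabilises the cluster, had 1112, 766 and 1041 FPKM in GAT, 1559, 1037 and 1173 FPKM in PBT, and 1885, 1956 and 1900 FPKM in control libraries. All GAT and PBT libraries lay below the control libraries. GAT/Control was −0.99 ± 0.17 (limma adjusted p = 0.0067) and PBT/Control −0.63 ± 0.17 (adjusted p = 0.074). The GAT/Control call was lost under quantile normalization (−0.59, adjusted p = 0.093) and with no filter on low values (adjusted p = 0.279), and PBT/Control was called without PBT replicate 1 (−0.79, adjusted p = 0.0378) or GAT replicate 2 (adjusted p = 0.0497).

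PsbP (LOC_Os07g04840), which holds calcium and chloride at the cluster, had 52.1, 50.6 and 48.8 FPKM in GAT, 66.8, 58.1 and 73.1 FPKM in PBT, and 94.8, 97.9 and 90.0 FPKM in control libraries. The groups did not overlap. GAT/Control was −0.89 ± 0.12 (limma adjusted p = 0.0016) and PBT/Control −0.51 ± 0.12 (adjusted p = 0.038). The PBT/Control call was lost in 7 of 9 fits that left out 1 library, all but those without GAT replicate 1 or PBT replicate 3 (adjusted p up to 0.104). PsbQ (LOC_Os07g36080), which binds beside PsbP, had 385, 273 and 417 FPKM in GAT, 634, 654 and 658 FPKM in PBT, and 466, 721 and 710 FPKM in control libraries. The PBT libraries lay above all GAT libraries and within the range of the control libraries. The change was −0.81 ± 0.20 (limma adjusted p = 0.033) between GAT and control, 0.06 ± 0.20 (adjusted p = 0.91) between PBT and control, and 0.88 ± 0.20 (adjusted p = 0.03) between PBT and GAT, and the first was lost in 7 of 9 fits that left out 1 library, all but those without GAT replicate 3 or control replicate 1 (adjusted p up to 0.118). The last was lost in 5 of 9, without GAT replicate 1, GAT replicate 2 or any PBT replicate (adjusted p up to 0.094). A second PsbQ entry (LOC_Os02g36850) had 4.58, 3.38 and 5.10 FPKM in GAT, 5.90, 8.87 and 12.8 FPKM in PBT, and 19.0, 13.4 and 12.7 FPKM in control libraries, and fell in GAT/Control (−1.58 ± 0.29, limma adjusted p = 0.0083). Its PBT and control libraries overlapped.

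The 2 PsbR genes, which encode a small PSII protein needed in Arabidopsis for stable binding of PsbP, were not called alike, and the difference between them was not tested. LOC_Os07g05360 had 944, 968 and 975 FPKM in GAT, 1710, 1691 and 1711 FPKM in PBT, and 795, 822 and 775 FPKM in control libraries. It was the only one of the 54 genes called higher in PBT/Control. The means were 962 ± 16.1 FPKM in GAT, 1704 ± 11.5 FPKM in PBT and 797 ± 23.9 FPKM in control (SD, n = 3 each), and PBT was 2.14 times control. The log2 fold changes were 0.27 ± 0.06 (limma adjusted p = 0.017) between GAT and control, 1.10 ± 0.06 (adjusted p = 5.4e-05) between PBT and control, and 0.82 ± 0.06 (adjusted p = 8.2e-05) between PBT and GAT. The GAT/Control call was lost in 4 of 9 fits that left out 1 library (without GAT replicate 1, GAT replicate 2, control replicate 1 or control replicate 3, adjusted p up to 0.0729), and quantile normalization gave 0.76. The PBT/Control call was lost with no filter on low values (adjusted p = 0.117). LOC_Os08g10020, with the highest mean of the 54 genes, had 2146, 3367 and 1967 FPKM in GAT, 3995, 2671 and 4078 FPKM in PBT, and 3260, 3631 and 3277 FPKM in control libraries. The groups overlapped, with 2 of 3 GAT libraries below every control library, and no comparison was called (GAT/Control −0.48 ± 0.22, PBT/Control 0.06 ± 0.22, PBT/GAT 0.54 ± 0.22). Under quantile normalization PBT/Control and PBT/GAT were both 0.49 and called (limma adjusted p = 0.0035 and 0.0026), and without GAT replicate 2 PBT/GAT was 0.78 and called (adjusted p = 0.0499). How reads that match both genes were divided is not given in the sources used here, so their separate levels are uncertain.

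Of 8 PSI genes, only PsaL (LOC_Os12g23200), the subunit at which PSI meets light-harvesting complex II and PsaH, was called. It had 497, 525 and 478 FPKM in GAT, 766, 780 and 787 FPKM in PBT, and 947, 938 and 889 FPKM in control libraries. All GAT libraries lay below all PBT libraries, which lay below all control libraries. The log2 fold change was −0.89 ± 0.07 (limma adjusted p = 8.5e-05) between GAT and control, −0.25 ± 0.07 (adjusted p = 0.073) between PBT and control, and 0.64 ± 0.07 (adjusted p = 0.0008, lost with no filter on low values, adjusted p = 0.104) between PBT and GAT.

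Several PSI genes had libraries far from the rest of their group. In 6 of the 8 PSI genes, the highest library of some group was over 2 times the lowest or the lowest was listed at 0. The same held for 18 of the 34 genes without plastid-encoded names, these 6 among them, so it was seen outside PSI too. It held for 5 of 5 ferredoxin entries under the selection rule, whose means were 72.6 FPKM or less. It also held for 2 of 6 other PSII genes and for 1 of 6 genes of the water-splitting complex. The share over all tested entries was not counted. PsaD (LOC_Os08g44680), the stromal docking site of ferredoxin, had 0, 635 and 632 FPKM in GAT, 1054, 1040 and 1009 FPKM in PBT, and 1350, 1294 and 0 FPKM in control libraries. PsaK (LOC_Os07g05480), a peripheral membrane subunit, had 530, 471 and 460 FPKM in GAT, 738, 836 and 885 FPKM in PBT, and 266, 1247 and 1257 FPKM in control libraries. The control library that stood apart was replicate 1 for PsaK and replicate 3 for PsaD. PsaG (LOC_Os09g30340), another peripheral subunit, was listed at 0 in 8 libraries and at 575 FPKM in control replicate 3. These 3 genes, and PsaF, PsaE and PsaN below, were chosen after their values were seen. PsaH (LOC_Os05g48630), with the highest mean of the PSI genes, had 935, 834 and 454 FPKM in GAT, 693, 740 and 747 FPKM in PBT, and 1452, 1379 and 811 FPKM in control libraries, and was not called (GAT/Control −0.73 ± 0.29, PBT/Control −0.69 ± 0.29, PBT/GAT 0.04 ± 0.29).

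In 5 PSI genes (PsaD, PsaK, PsaL, PsaF and PsaN), every PBT library lay above every GAT library, as in 12.6% of all tested entries, and of the 5 only PsaL was called. PsaF (LOC_Os03g56670), the plastocyanin docking subunit, had 593, 551 and 628 FPKM in GAT and 849, 856 and 827 FPKM in PBT, while its control libraries had 1070, 193 and 609 FPKM. PsaN (LOC_Os12g08770), a lumenal subunit, had 449, 414 and 386 FPKM in GAT and 500, 512 and 502 FPKM in PBT, and 365, 705 and 705 FPKM in control libraries. PsaE (LOC_Os07g25430), a stromal subunit, had 449, 506 and 466 FPKM in GAT, 641, 180 and 703 FPKM in PBT, and 852, 310 and 821 FPKM in control libraries. In each of these 3 genes a control library lay far below the others, replicate 2 for PsaF and PsaE and replicate 1 for PsaN, and no comparison was called. With single values of 0 dropped if the rest of the group was above 1 FPKM, PsaD gave −1.06 ± 0.07 (limma adjusted p = 0.00018, 1 GAT and 1 control library dropped) between GAT and control, −0.35 ± 0.07 (adjusted p = 0.022, 1 control library dropped) between PBT and control, and 0.71 ± 0.07 (adjusted p = 0.0011, 1 GAT library dropped) between PBT and GAT.

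**Figure D4:**
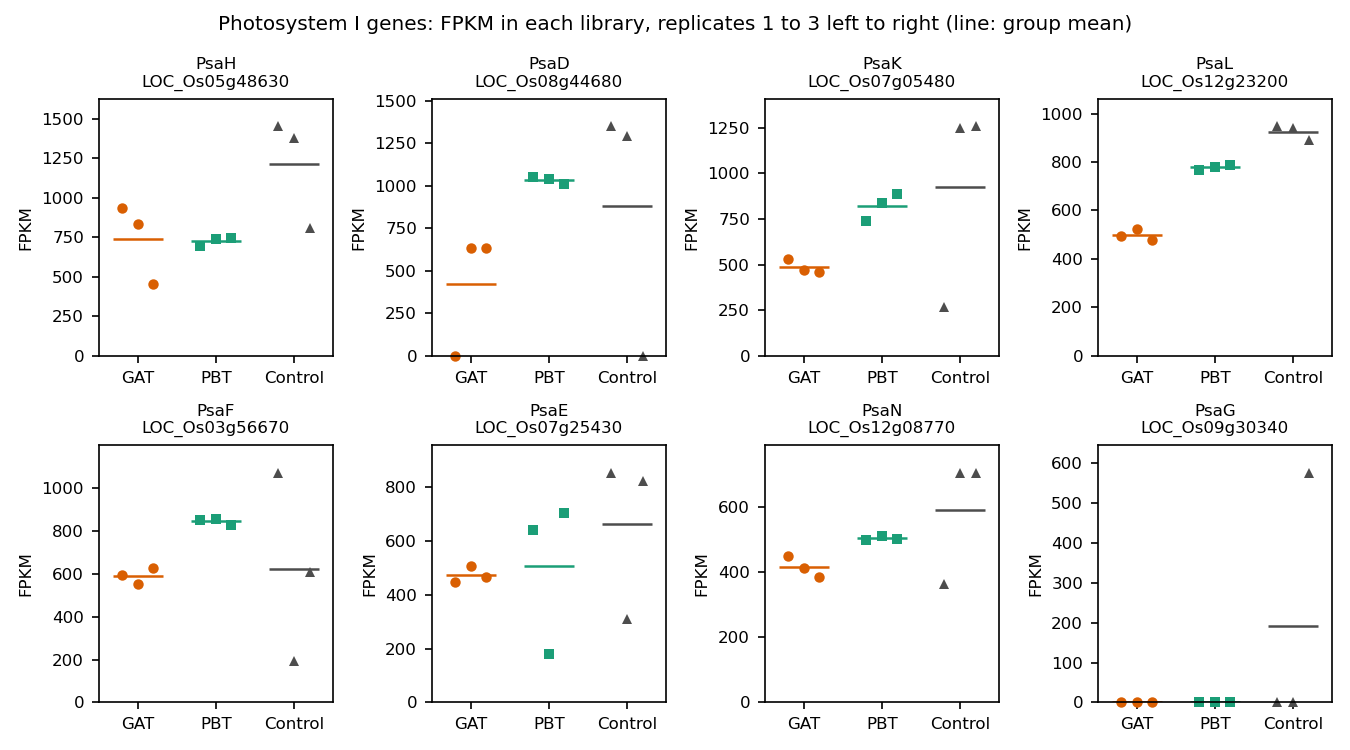
FPKM in each library for the 8 PSI genes, with replicates 1 to 3 drawn left to right and a line at each group mean (n = 3), on axes that start at 0. The PsaL libraries of each group lie close together, while PsaD has 1 GAT and 1 control library at 0 and PsaG has 1 control library at 575 FPKM and the other libraries at 0.

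Electron transport from PSII to PSI and to NADPH was represented under the selection rule by 2 Rieske protein, 5 ferredoxin and 3 FNR entries. PetC (LOC_Os07g37030), the Rieske iron-sulfur protein of cytochrome b6f, had 1078, 1031 and 1034 FPKM in GAT, 1274, 1334 and 1305 FPKM in PBT, and 1511, 1578 and 1521 FPKM in control libraries. The groups did not overlap, and the steps were small: −0.55 ± 0.06 (limma adjusted p = 0.00045) between GAT and control, −0.24 ± 0.06 (adjusted p = 0.047) between PBT and control, and 0.32 ± 0.06 (adjusted p = 0.011) between PBT and GAT. The PBT/Control call was lost in 17 of 20 other settings, all 9 fits that left out 1 library among them (adjusted p up to 0.157), and under quantile normalization GAT/Control became −0.02 (adjusted p = 0.926) and PBT/GAT turned to −0.05 (adjusted p = 0.692). FNR (LOC_Os06g01850), which passes electrons to NADP, had 258, 263 and 236 FPKM in GAT, 342, 313 and 332 FPKM in PBT, and 407, 420 and 373 FPKM in control libraries. It fell in GAT/Control (−0.66 ± 0.09, limma adjusted p = 0.0016), and PBT/GAT was 0.38 ± 0.09 (adjusted p = 0.03, lost in all 6 fits that left out a GAT or PBT library, up to 0.0842). The other 2 FNR entries (means of 20.3 and 5.89 FPKM) and the second Rieske entry (10.9 FPKM) were not called.

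The ferredoxin entry LOC_Os04g33630 had 6.21, 8.41 and 3.06 FPKM in GAT, 17.6, 18.0 and 12.0 FPKM in PBT, and 15.8, 24.3 and 20.4 FPKM in control libraries. It fell in GAT/Control (−1.68 ± 0.32, limma adjusted p = 0.011), and PBT/GAT was 1.35 ± 0.32 (adjusted p = 0.036, lost in 8 of 9 fits that left out 1 library, all but the one without GAT replicate 2, up to 0.114). Another ferredoxin entry, LOC_Os03g45710, had the highest mean of the 5, with 62.2, 62.4 and 0 FPKM in GAT, 88.5, 87.8 and 85.3 FPKM in PBT, and 95.8, 82.4 and 88.9 FPKM in control libraries. It was not called with its 0 included. With GAT replicate 3 dropped as missing, GAT/Control was −0.50 ± 0.12 (limma adjusted p = 0.024) and PBT/GAT was 0.48 ± 0.12 (adjusted p = 0.035). The ferredoxin LOC_Os01g64120, chosen after its values were seen, was listed at 0 in the first 2 replicates of each group and had 24.9 FPKM in GAT, 143 FPKM in PBT and 75.4 FPKM in control libraries in replicate 3. The other 2 ferredoxin entries of the 5 were not called. LOC_Os08g01380, a leaf ferredoxin gene whose entry carries no description, lay outside the selection rule and was named after its values were seen. It had 1389, 1395 and 1364 FPKM in GAT, 1687, 1723 and 1789 FPKM in PBT, and 3799, 3730 and 3670 FPKM in control libraries. GAT/Control was −1.43 ± 0.05 (limma adjusted p = 3.8e-06) and PBT/Control −1.11 ± 0.05 (adjusted p = 3.9e-05). PBT/GAT was 0.33 ± 0.05 (limma adjusted p = 0.0059).

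Of 4 ATP synthase genes, LOC_Os03g17070, the nuclear-encoded B chain of the stalk that holds the catalytic head, had 518, 504 and 464 FPKM in GAT, 649, 659 and 642 FPKM in PBT, and 844, 809 and 796 FPKM in control libraries. The groups did not overlap, and the log2 fold changes were −0.72 ± 0.07 (limma adjusted p = 0.00033) between GAT and control, −0.33 ± 0.07 (adjusted p = 0.03) between PBT and control, and 0.39 ± 0.07 (adjusted p = 0.01) between PBT and GAT. The PBT/Control call was lost in all 6 fits that left out 1 PBT or control library (adjusted p up to 0.0928), and the PBT/GAT call under quantile normalization (adjusted p = 0.0901). LOC_Os01g48300, annotated as related to ATP synthase protein I, had 31.1, 23.0 and 25.2 FPKM in GAT, 18.1, 12.0 and 14.0 FPKM in PBT, and 20.6, 30.5 and 25.6 FPKM in control libraries. It was the only gene of the 54 called lower in PBT/GAT (−0.82 ± 0.21, limma adjusted p = 0.048), a call lost in 6 of 9 fits that left out 1 library, without any GAT replicate, PBT replicate 2 or 3, or control replicate 3 (adjusted p up to 0.14). Of the 2 delta subunit entries, neither was called.

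Among the 20 entries with plastid-encoded names, no comparison was called by limma, and 0, 0 and 2 entries had an unadjusted p under 0.05 in GAT/Control, in PBT/Control and for PBT against GAT. Of all 22946 tested entries, 5760, 4535 and 5339 had such a p in the same comparisons. The median log2 fold change of the 20 was 0.04 in GAT/Control and −0.13 in PBT/GAT, with PBT/Control close to 0. The highest of the 20, AtpF (LOC_Os10g21238), the plastid-encoded name of a stalk subunit of the ATP synthase, had 22.3, 21.7 and 23.6 FPKM in GAT, 2.20, 14.0 and 12.1 FPKM in PBT, and 14.7, 17.5 and 17.1 FPKM in control libraries. This entry also holds transcripts of another locus, LOC_Os10g21230, so its values are not those of AtpF alone. All GAT libraries lay above the control libraries and all PBT libraries below them, but no comparison was called. Without PBT replicate 1, PBT/GAT was −0.75 and called (limma adjusted p = 0.0335), against −1.46 (adjusted p = 0.12) with all libraries.

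Related groups were counted in the same fit. The shares of all tested entries to set beside these counts are 6.82% higher and 5.17% lower in GAT/Control, 3.9% higher and 2.47% lower in PBT/Control, and 4.65% higher and 4.72% lower in PBT/GAT. Of 10 tested antenna protein genes, which encode the light-harvesting proteins that feed both photosystems, 6 were lower in GAT/Control (median −1.31), 4 were lower in PBT/Control (median −0.84) and 5 were higher in PBT/GAT (median 0.40). Of 43 carbon fixation genes, 10 were lower and 1 was higher in GAT/Control, 5 were lower in PBT/Control, and 3 were higher and 1 lower in PBT/GAT, where the counts are near the share over all entries. Of 36 other photosynthesis entries, 24 are described by a plastocyanin-like domain, which also occurs in copper proteins outside the chloroplast. Among the 36, GAT/Control had 7 lower and 2 higher, PBT/Control 1 lower and 3 higher, and PBT/GAT 4 higher and 0 lower. The 24 held all 4 calls in PBT/GAT (median 0.61) and 5 of the 7 lower ones in GAT/Control. The other 12 had 2 lower and 1 higher in GAT/Control and 0 lower and 1 higher in PBT/Control. None of these 12 was called in PBT/GAT, where their median was −0.33. Of 3 rubisco small chain entries, which mark leaf mesophyll, 2 were lower in GAT/Control, 2 were lower in PBT/Control and 2 were higher in PBT/GAT. LOC_Os12g17600 had log2 fold changes of −1.10 for GAT/Control, −0.67 for PBT/Control and 0.43 for PBT/GAT. These entries are not a group apart from carbon fixation. The lowest GAT/Control value among the carbon fixation genes, −1.91, is that of the small chain entry LOC_Os02g05830. Of 28 core histone entries, which mark dividing cells, calls were few and are no result about the group: 3 were lower and 2 higher in GAT/Control, 1 was lower in PBT/Control, and 3 were lower and 1 higher in PBT/GAT.

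Of 3 genes taken as markers of senescing leaves, LOC_Os03g21060, a no apical meristem (NAC) protein gene, had 13.5, 21.2 and 17.7 FPKM in GAT, 8.03, 8.61 and 8.19 FPKM in PBT, and 4.26, 4.47 and 3.77 FPKM in control libraries. It was highest in GAT and lowest in control, with log2 fold changes of 1.82 ± 0.19 (limma adjusted p = 0.00048) between GAT and control, 0.85 ± 0.19 (adjusted p = 0.036) between PBT and control, and −0.97 ± 0.19 (adjusted p = 0.015) between PBT and GAT. This is the reverse of the order most common among the photosynthesis genes. The other 2 markers did not show it: both had their highest mean in PBT, and neither was called in any comparison. LOC_Os09g36200 had 24.0, 30.1 and 32.7 FPKM in GAT, 34.8, 35.4 and 24.6 FPKM in PBT, and 18.8, 22.5 and 9.09 FPKM in control libraries. LOC_Os01g12710 had 33.3, 91.7 and 29.5 FPKM in GAT, 93.3, 81.9 and 79.7 FPKM in PBT, and 20.4, 74.6 and 55.5 FPKM in control libraries. The part of senescing tissue in the photosynthesis results was not tested. The summed FPKM of the core histones was 515, 595 and 650 in GAT, 563, 562 and 592 in PBT, and 671, 687 and 734 in control libraries, lower in every GAT and PBT library than in the controls. These sums may rest on few entries. The median log2 fold change of the 28 entries was −0.07 in GAT/Control and −0.17 in PBT/Control, while the lowest was −6.69 in both. The part of dividing tissue in the photosynthesis results was not tested either.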

How the data were processed

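RNA from submerged IR64 leaves was sequenced in 9 libraries (3 each of GAT, PBT and control), grouped by the names in the labels. By the study's methods, adaptor and low-quality reads were removed and the rest aligned to the rice pseudomolecules (MSU version 7.0) by Tophat. The methods name Cufflinks for FPKM, and values for each gene and library were deposited. The deposited entries carry MSTRG names, which the methods do not explain, so the tool behind the values is uncertain. The submitters' processing notes also name Bowtie 0.12.2. Replicates were not pooled. Of the 9 files of single libraries, 4 hold the values of another library, so only the joint table was used, and its annotation was used as deposited.

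The tested values were log2(FPKM + 1) of the 22946 entries that averaged 0.5 FPKM or more. limma 3.58.1 in R 4.3.3 fitted 3 group means to 9 libraries with a variance trend, and p was adjusted over all entries. The test was two-sided and was tested on simulated data. Fold changes on this scale understate changes of low genes. Genes were named if called in at least 1 comparison (at most 30) or if highest in their role group, and others are said to have been chosen after their values were seen. The genes and lists were chosen with earlier results of these data known. Plastid-encoded names were recognised from the RefSeq rice gene table, which matched 0 locus names. A root marker was not analysed here. Other settings tried were a pseudocount of 0.5 or 0.1, no filter or one of 5 FPKM, quantile normalization, median scaling, fewer libraries in the fit, a replicate block, no variance trend, single values of 0 as missing and entries of the same name summed. Leaving out genes with a 0 or with plastid-encoded names was added after seeing the data.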

Additional observations from a re-analysis of the deposited data

How the results depend on the processing

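The count of genes lower in GAT/Control (13) was between 9 and 15 in all settings tried. The 1 gene higher in GAT/Control became 0 with no filter on low values, median scaling, only the 2 groups compared, no variance trend or the replicate block, and 3 with single values of 0 treated as missing. The 1 gene higher in PBT/Control became 0 with no filter, 2 with quantile normalization and 3 with single values of 0 missing. The 6 genes lower in PBT/Control became 3 with median scaling, only the 2 groups compared, no variance trend or the replicate block, and 8 with a filter of 5 FPKM or single values of 0 missing. The 9 genes higher in PBT/GAT became 1 with no filter, 4 with no variance trend and 13 with single values of 0 missing. The 1 gene lower in PBT/GAT became 0 with no filter, quantile normalization, median scaling, only the 2 groups compared, no variance trend or the replicate block. Leaving out 1 library in turn gave 0 to 1 higher and 11 to 14 lower genes in GAT/Control, 1 to 2 higher and 3 to 5 lower in PBT/Control, and 5 to 9 higher and 0 to 2 lower in PBT/GAT. The PBT/GAT log2 fold change of PetC (LOC_Os07g37030) turned to −0.055 under quantile normalization (limma adjusted p = 0.692). The causes were not tested. Of 1140 values of the named genes under other settings, 131 lost the call, 15 gained it and 1 turned round. Over all tested entries, replicate numbers did not pair the libraries: the correlations of same-numbered deviations were between −0.037 and 0.0124, and 1 of 9 libraries correlated best with its own number. Single entries can differ from this: the ferredoxin LOC_Os01g64120 and a PsbB entry (LOC_Os06g39708) were above 0 only in replicate 3 of each group. With the replicate block, calls over all entries were 2035 in GAT/Control (2752 without it), 942 in PBT/Control (1462) and 1464 in PBT/GAT (2149).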
